A study of Mus musculus with 6 samples.

Results

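Vitamin A handling was followed in TKO mESCs through 9 genes for retinoid transport, metabolism and response, Stra6, Crabp1, Crabp2, Rdh10, Dhrs3, Aldh1a2, Cyp26a1, Cyp26b1 and Rarb. They were taken by symbol from the GENCODE M21 annotation of GRCm38, the build of mm10, and are 9 of the 53390 genes with a matched transcript. Of these, 8 passed the filter on low counts, of 18177 genes that did so in all, and Rarb did not pass it. Stra6 and Cyp26a1 passed through their counts in serum, so the number of members called among those tested is a description and no support for a direction.

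The libraries were poly(A)-selected, strand-specific RNA-seq of mouse embryonic stem cells (mESCs), which in the wild type can form every lineage of the embryo. TKO cells lack functional Dnmt1, Dnmt3a and Dnmt3b, and so the enzymes that methylate DNA, in both groups. The study reports that TKO mESCs are impaired in differentiation, with few cells positive for a mesoderm or an ectoderm marker. TKO cells descend from the male J1 line of strain 129S4/SvJae and were kept without feeder cells on gelatin, and no TKO clone is named in the sources used here. The question was how the cells differ between the serum state and the 2i state. TKO-serum cells (n = 3) grew in high-glucose DMEM with 15% FCS and 500 U/ml LIF. TKO-2i cells (n = 3) grew in N2B27 with the MEK inhibitor PD0325901 at 1 µM, the GSK3 inhibitor CHIR99021 at 3 µM and 1000 U/ml LIF. The effects of the inhibitors, the LIF dose, the basal medium and the serum cannot be told apart, and the retinoid content of either medium is not given in the sources used here. The labels call the replicates biological. Library totals of estimated counts were, for replicates 1, 2 and 3, 46228700, 44180642 and 43896549 for TKO-2i, and 38274042, 51932739 and 44827609 for TKO-serum. TKO-2i replicate 2 stood apart from its group, with a chi-square per gene of 42 against replicate 1 and 25.6 against replicate 3, where replicates 1 and 3 gave 6.82. TKO-serum replicate 2 stood apart less, at 14.4 and 9.83 against 4.47. Without the one or the other 7 members were called, the same number as with all 6. Values are given in the order of replicates 1, 2 and 3 throughout. Differences were tested over all genes by the quasi-likelihood method of edgeR, with p-values adjusted after Benjamini and Hochberg, which is meant wherever the edgeR test is named, and differences are TKO-2i minus TKO-serum on the log2 scale.

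Retinol can enter cells through the membrane receptor STRA6, is oxidised to retinal by retinol dehydrogenases such as RDH10 and then to retinoic acid by retinal dehydrogenases such as ALDH1A2, while DHRS3 reduces retinal back to retinol and the CYP26 enzymes break retinoic acid down. CRABP1 and CRABP2 bind retinoic acid in the cytosol, and nuclear RAR-RXR pairs bound to DNA respond to it. Cyp26a1, Rarb, Stra6, Crabp2 and Dhrs3 are known to be induced by retinoic acid, which drives mESCs out of self-renewal.

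Of the members tested, Stra6, Crabp1, Crabp2, Rdh10, Aldh1a2 and Cyp26a1 were less abundant in 2i than in serum, Dhrs3 was more abundant and Cyp26b1 was not called. Of the 8 members tested 7 were called at an adjusted p under 0.05, where 62.5% of all genes tested were called. Of these, 6 were lower in TKO-2i, against 30.6% of all genes, and 1 was higher, against 31.9%. Cyp26a1 and Stra6 fell by more than 2 on the log2 scale, which 7.1% of genes did. Libraries of the groups did not overlap in CPM for 7 members, as for 67.5% of genes. The median log2 fold change of the 8 members was -0.65, beside 0.0126 over all genes tested. In bulk libraries fewer expressing cells and less RNA per cell cannot be told apart.

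Levels between genes are given as TPM, which is scaled for transcript length. Crabp1 was the most abundant member in both groups, at 45.7 ± 1.68 (SD, n = 3) in TKO-serum and 30.1 ± 1.23 (SD, n = 3) in TKO-2i. In TKO-serum it was followed by Crabp2, Rdh10, Aldh1a2 and Cyp26a1, and then by Stra6, Dhrs3, Rarb and Cyp26b1. Neighbours in this order did not overlap between replicates, except Rarb and Cyp26b1. In TKO-2i the order was Crabp1, Crabp2, Rdh10, Aldh1a2 and Dhrs3, of which Aldh1a2 and Dhrs3 overlapped. Stra6, Rarb, Cyp26a1 and Cyp26b1 followed there with overlapping values and means under 0.1 TPM.

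**Figure D1:**
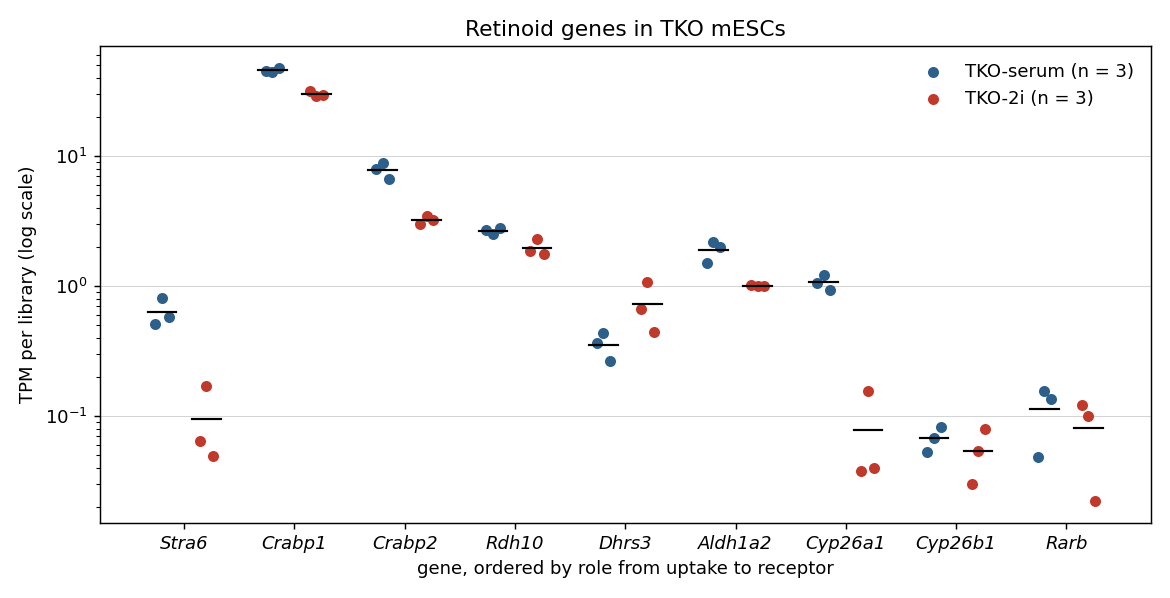
TPM of the 9 genes in each library on a log axis, with 3 TKO-serum libraries in blue, 3 TKO-2i libraries in red and a black line at each group mean. Cyp26a1 and Stra6 show the widest separation, Dhrs3 alone lies higher in TKO-2i, and Cyp26b1 and Rarb overlap between groups at or below 0.156 TPM.

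For uptake, Stra6 (chr9:58063788-58153996) was at 0.511, 0.807 and 0.580 TPM in TKO-serum and at 0.0646, 0.170 and 0.0493 TPM in TKO-2i. All 3 serum libraries lay above all 3 libraries in 2i, and TKO-2i replicate 2 was the highest of its group. The values in 2i rest on 7, 15 and 5 counts, those in serum on 45, 66 and 56. The difference passed the edgeR test (log2 fold change -2.54, SE 0.32, edgeR Benjamini-Hochberg adjusted p = 1.65e-04). The counts of Stra6 in serum were divided between its transcripts differently in each library. Most went to the protein-coding Stra6-201 and Stra6-202, with Stra6-202 at 0.403, 0.318 and 0 TPM, so the fall is stated for the gene and not for a transcript.

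Among the cytosolic carriers, Crabp1 (chr9:54764748-54773110) was at 45.0, 44.5 and 47.6 TPM in TKO-serum and at 31.5, 29.1 and 29.8 TPM in TKO-2i. The 3 libraries of each group lay close together and the groups did not overlap. The fall passed the edgeR test (log2 fold change -0.48, SE 0.0954, edgeR Benjamini-Hochberg adjusted p = 0.00237). It lay within the middle 50% of log2 fold changes, just above the lower quartile of -0.51. Crabp2 (chr3:87948666-87953376), which hands retinoic acid to the receptors, was at 7.97, 8.93 and 6.71 TPM in TKO-serum and at 3.00, 3.47 and 3.23 TPM in TKO-2i. Each library in 2i was lower than each in serum, and its fall passed the edgeR test (log2 fold change -1.21, SE 0.12, edgeR Benjamini-Hochberg adjusted p = 4.58e-05).

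The ratio of Crabp1 to Crabp2 in TPM was 5.65, 4.98 and 7.10 in TKO-serum and 10.5, 8.40 and 9.22 in TKO-2i. It was higher in each of the 3 libraries in 2i, with p = 0.1 by an exact two-sided permutation test, the smallest p that 3 libraries against 3 allow.

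In synthesis, Rdh10 (chr1:16105774-16133734), which makes retinal, was at 2.72, 2.51 and 2.79 TPM in TKO-serum and at 1.86, 2.32 and 1.77 TPM in TKO-2i. The groups did not overlap, although TKO-2i replicate 2 came close to the serum libraries. The difference passed the edgeR test (log2 fold change -0.32, SE 0.0998, edgeR Benjamini-Hochberg adjusted p = 0.0208), but lay within the middle 50% of all genes, and the call was lost without any of 3 single libraries. The log2 fold change was then -0.28, -0.31 and -0.29, so the difference stayed about as large. Its Benjamini-Hochberg adjusted p in edgeR was 0.0614 without TKO-2i replicate 3, 0.0597 without TKO-serum replicate 1 and 0.0745 without TKO-serum replicate 3.

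Aldh1a2 (chr9:71215789-71296243), which makes retinoic acid in many tissues of the embryo, was at 1.52, 2.19 and 2.00 TPM in TKO-serum and at 1.02, 1.01 and 1.00 TPM in TKO-2i. The libraries in 2i were nearly equal and lay below the serum libraries, of which replicate 1 was the lowest. Its fall passed the edgeR test (log2 fold change -0.82, SE 0.15, edgeR Benjamini-Hochberg adjusted p = 0.00132). Aldh1a2 has 1 annotated transcript, as have Crabp1 and Cyp26a1, so no division between transcripts enters these values.

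Dhrs3 (chr4:144892827-144928209), the enzyme of the reverse step from retinal to retinol, was at 0.365, 0.434 and 0.265 TPM in TKO-serum and at 0.670, 1.08 and 0.445 TPM in TKO-2i. The lowest library in 2i, replicate 3, lay just above the highest in serum, and the spread in 2i was wide, on 40, 46 and 26 counts against 19, 26 and 13. Its rise passed the edgeR test (log2 fold change 1.01, SE 0.30, edgeR Benjamini-Hochberg adjusted p = 0.0171). It was not called without TKO-serum replicate 3 (log2 fold change 0.79, adjusted p = 0.0622 by edgeR), nor by limma on log2(TPM + 0.1) (adjusted p = 0.0504) or on log2(TPM + 1) (adjusted p = 0.0571). The protein-coding transcript Dhrs3-207 was at 0.111, 0.267 and 0 TPM in TKO-serum and at 0.477, 0.801 and 0.245 TPM in TKO-2i. Dhrs3-201, a transcript annotated for nonsense-mediated decay, was at 0.254, 0.167 and 0.0765 TPM in serum and 0.193, 0.0895 and 0.200 TPM in 2i, and both transcripts overlapped between the groups. In TKO-serum replicate 3, where Dhrs3-207 was at 0, the protein-coding Dhrs3-202 was at 0.188 TPM, so the rise is stated for the gene and not for a transcript.

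For breakdown, Cyp26a1 (chr19:37697798-37701536), an inducible enzyme that clears retinoic acid, was at 1.05, 1.23 and 0.932 TPM in TKO-serum and at 0.0378, 0.156 and 0.0399 TPM in TKO-2i. The counts were 44, 65 and 44 in serum and 2, 7 and 2 in 2i, so TKO-2i replicates 1 and 3 were under the floor of 3 counts. The summed counts gave a CPM ratio of 2i to serum of 0.0753 (95% exact Clopper-Pearson interval 0.0368 to 0.139), which covers counting error only. This was the largest difference among the members, and it passed the edgeR test (log2 fold change -3.68, SE 0.38, edgeR Benjamini-Hochberg adjusted p = 5.22e-05). Without TKO-2i replicate 2, the library with 7 counts, the log2 fold change was -4.51.

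Cyp26b1 (chr6:84571414-84593908), the related enzyme, was at 0.0531, 0.0681 and 0.0827 TPM in TKO-serum and at 0.0300, 0.0539 and 0.0791 TPM in TKO-2i. The groups overlapped, on 7, 12 and 12 counts in serum and 5, 8 and 12 in 2i, and the difference did not pass the edgeR test (log2 fold change -0.23, SE 0.39, edgeR Benjamini-Hochberg adjusted p = 0.629). The CPM ratio of summed counts was 0.845 (95% exact Clopper-Pearson interval 0.478 to 1.48). This interval covers counting error only and includes no difference, and which differences could be detected was not measured. Cyp26b1 lies on chromosome 6, where the median over 866 tested genes was 0.41 on the log2 scale, and the part of this shift in its value was not tested.

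Rarb (chr14:16430839-16819156), a retinoic acid receptor that is itself a classical target of retinoic acid, had 4, 12 and 12 counts in TKO-serum and 10, 9 and 2 counts in TKO-2i, or 0.0486, 0.156 and 0.135 TPM in serum and 0.121, 0.101 and 0.0223 TPM in 2i. The groups overlapped and 49 counts in all kept it below the filter, so it was not tested in this fit. Its CPM ratio of 2i to serum from summed counts was 0.786 (95% exact Clopper-Pearson interval 0.424 to 1.43). The interval covers counting error only and includes no difference.

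**Figure D2:**
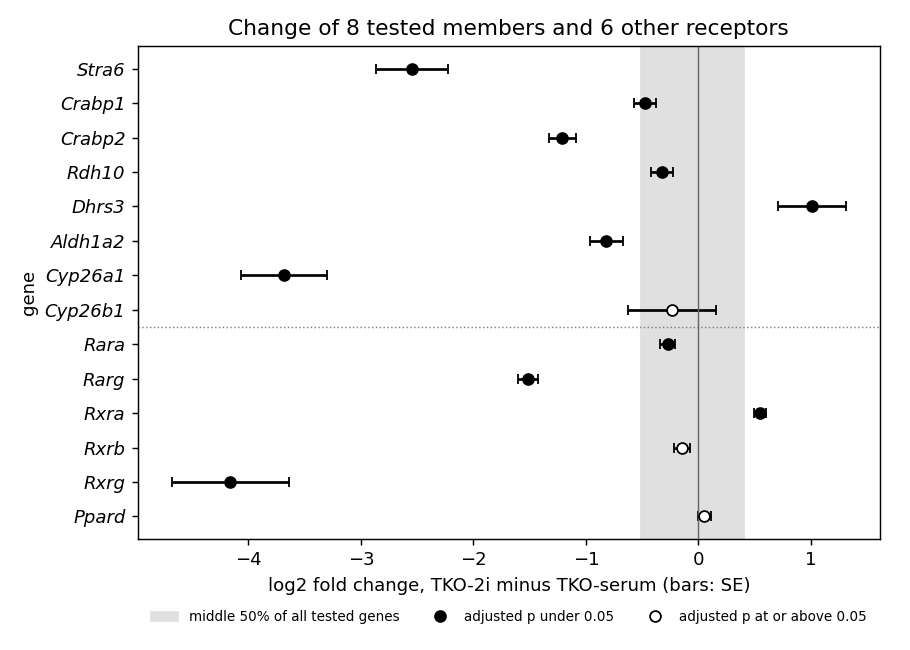
Log2 fold change of TKO-2i minus TKO-serum for the 8 tested members, above the dotted line, and 6 other receptor genes, below it, with bars for the SE of the edgeR fit. Filled points have an adjusted p under 0.05 and the grey band holds the middle 50% of all genes tested. Cyp26a1 at -3.68 and Stra6 at -2.54 lie far to the left of the band, Dhrs3 at 1.01 lies to its right, and Crabp1 and Rdh10 lie inside it.

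Of the 6 other receptor genes, 3 were lower in TKO-2i, 1 was higher and 2 were not called, or 66.7% called beside 62.5% of all genes. Rarg, the most abundant of them in serum, was at 98.3, 107 and 98.4 TPM in TKO-serum and at 37.3, 35.6 and 25.9 TPM in TKO-2i, with no overlap (log2 fold change -1.52, SE 0.0911, edgeR Benjamini-Hochberg adjusted p = 2.22e-06). Rara was at 27.9, 28.0 and 29.2 TPM in serum and 20.8, 23.0 and 21.4 TPM in 2i, a smaller fall on chromosome 11, where the median of tested genes was 0.26 (log2 fold change -0.27, SE 0.0627, edgeR Benjamini-Hochberg adjusted p = 0.00480). Rxra, a partner of the RARs, rose and did not overlap, from 8.73, 8.95 and 8.96 TPM to 11.4, 11.4 and 10.1 TPM (log2 fold change 0.55, SE 0.0540, edgeR Benjamini-Hochberg adjusted p = 3.78e-05). The rise of Rxra was smaller but still called with counts from length-scaled TPM (0.40) and by limma on log2(TPM + 1) (0.27) and log2(TPM + 0.1) (0.30). Rxrg was scarce, with 24, 28 and 29 counts in serum and 3, 0 and 1 in 2i, a CPM ratio of 0.0517 (95% exact Clopper-Pearson interval 0.0138 to 0.138), and fell (log2 fold change -4.16, SE 0.52, edgeR Benjamini-Hochberg adjusted p = 1.59e-04). TKO-2i replicates 2 and 3 were under the floor of 3 counts. Rxrg passed the filter through its counts in serum, so the number called among the receptor genes is a description and no support for a direction. With 1 library left out its log2 fold change lay between -5.38 (without TKO-2i replicate 1) and -3.61 (without TKO-2i replicate 2). Rxrb (log2 fold change -0.15, SE 0.0707, edgeR Benjamini-Hochberg adjusted p = 0.100) and Ppard (log2 fold change 0.0534, SE 0.0597, edgeR Benjamini-Hochberg adjusted p = 0.465) did not pass the edgeR test, though Rxrb did under 7 alternatives, among them counts from length-scaled TPM (log2 fold change -0.28, adjusted p = 0.00232).

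The summed TPM of Rara, Rarb and Rarg was 126, 135 and 128 in TKO-serum and 58.3, 58.7 and 47.3 in TKO-2i. Rarg made up 77.9, 79.1 and 77.1 percent of it in serum and 64.1, 60.6 and 54.8 percent in 2i, and Rarb at most 0.208 percent in any library. The ratio of summed RAR to summed RXR TPM was 2.43, 2.56 and 2.50 in serum and 1.31, 1.27 and 1.15 in 2i. For these 3 quantities the libraries in 2i lay below those in serum, each with p = 0.1 by an exact two-sided permutation test.

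The wider pathway was read from 7 lists with 96 genes, of which 73 were tested, 26 were higher in TKO-2i and 21 lower, or 64.4% called beside 62.5% of all genes. Among carriers and uptake proteins, 8 of 12 were tested, 4 rose and 3 fell (87.5% called). Scarb1, a lipoprotein receptor that takes up carotenoids, rose from 15.2, 16.5 and 17.1 TPM to 38.5, 38.3 and 36.3 TPM (log2 fold change 1.31, SE 0.0686, edgeR Benjamini-Hochberg adjusted p = 1.04e-06). Stra6l, another retinol-binding protein receptor, rose too (log2 fold change 1.30, SE 0.27, edgeR Benjamini-Hochberg adjusted p = 0.00272). Lrp2, an endocytic receptor that can take up carrier-bound retinol, fell from 9.14, 11.4 and 10.4 TPM to 1.19, 1.85 and 1.13 TPM (log2 fold change -2.88, SE 0.13, edgeR Benjamini-Hochberg adjusted p = 5.36e-07). Among these, Stra6 and Lrp2 were lower in 2i, and Stra6l and Scarb1 higher.

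Of 8 storage and release genes 4 were tested, 2 rose and 1 fell (75% called, where 62.5% of all genes were), with a median log2 change of 0.0864. The largest change was that of Bco2, a carotenoid-cleaving enzyme named after its values were seen, which rose from 0.120, 0.175 and 0.157 TPM to 0.537, 0.562 and 0.567 TPM (log2 fold change 1.93, SE 0.22, edgeR Benjamini-Hochberg adjusted p = 9.36e-05). The changes of Dgat1 (-0.22) and Lpl (0.18) in the edgeR fit were small, the calls were lost under 6 and 10 of 16 alternatives, and Lpl overlapped in TPM. Dgat1 did not overlap in TPM. Its fall was larger, and called, with counts from length-scaled TPM (-0.41) and by limma on log2(TPM + 1) (-0.48) and log2(TPM + 0.1) (-0.49). Of 20 retinol and retinal oxidoreductases 14 were tested, 3 rose and 4 fell (50.0% called), with a median of -0.15. Rdh13 rose from 12.2, 13.3 and 13.7 TPM to 18.4, 18.6 and 18.4 TPM (log2 fold change 0.54, SE 0.0484, edgeR Benjamini-Hochberg adjusted p = 2.30e-05). The alcohol dehydrogenase genes Adh4 (log2 fold change -2.0, SE 0.22, edgeR Benjamini-Hochberg adjusted p = 6.68e-05) and Adh1 (log2 fold change -0.59, SE 0.21, edgeR Benjamini-Hochberg adjusted p = 0.0385), named after their values were seen, fell without overlap. Adh7, also called lower from counts, had 12, 13 and 12 counts in serum and 0, 3 and 2 in 2i but overlapped in TPM, at 0.167, 0.141 and 0.147 in serum and 0, 0.0376 and 0.185 in 2i, so no size is given for its fall. Adh7 passed the filter through its counts in serum, and Rdh7, among the 3 that rose, through its counts in 2i. Akr1b8, on chromosome 6, fell less (log2 fold change -0.41, SE 0.11, edgeR Benjamini-Hochberg adjusted p = 0.0120). Rdh5 rose (log2 fold change 0.67, SE 0.22, edgeR Benjamini-Hochberg adjusted p = 0.0288) but overlapped in TPM and lost the call under 7 alternatives. Of 7 genes in the list of retinal dehydrogenases and retinoic acid breakdown 3 were tested and 1 fell (33.3% called). That gene was Cyp1b1, named after its values were seen, at 0.547, 0.564 and 0.531 TPM in serum and 0.0794, 0.0873 and 0.149 TPM in 2i (log2 fold change -2.26, SE 0.25, edgeR Benjamini-Hochberg adjusted p = 7.84e-05). Cyp1b1 is outside the Cyp26 family, and its fall is not read as one in breakdown. Aldh1a3, which makes retinoic acid as Aldh1a2 does, was at 1.95, 1.56 and 1.52 TPM in serum and 1.29, 1.08 and 0.948 TPM in 2i and did not pass (log2 fold change -0.24, SE 0.19, edgeR Benjamini-Hochberg adjusted p = 0.292).

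All 16 receptor cofactors were tested, 5 rose and 2 fell (43.8% called, below the 62.5% of all genes), with a median change of 0.11. Nrip1, a corepressor that binds liganded receptors, rose from 1.42, 1.66 and 1.50 TPM to 2.87, 4.68 and 3.23 TPM (log2 fold change 1.47, SE 0.13, edgeR Benjamini-Hochberg adjusted p = 1.81e-05). Med1, a subunit of Mediator on chromosome 11, rose (log2 fold change 0.69, SE 0.0806, edgeR Benjamini-Hochberg adjusted p = 1.05e-04). Of 5 other coactivator genes (Ncoa1, Ncoa2, Ncoa3, Ep300 and Crebbp) 3 were not called, with Ncoa2 higher at 0.45 (SE 0.0682) and Ncoa3 lower at -0.41 (SE 0.0676) on the log2 scale, both past the edgeR test, though Ncoa2 lost the call by limma on log2(TPM + 1) (adjusted p = 0.0517). The largest change in the list was that of Prame, a gene whose human counterpart represses RAR signalling, named after its values were seen, which fell on 23, 34 and 28 counts in serum and 2, 7 and 3 in 2i (log2 fold change -2.72, SE 0.38, edgeR Benjamini-Hochberg adjusted p = 2.94e-04). Prame passed the filter through its counts in serum.

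Genes known to respond to retinoic acid moved in both directions. Of 27 listed 22 were tested, 11 rose and 7 fell (81.8% called), where 31.9% of all genes rose and 30.6% fell, with a median of 0.38. Cdx1, Hoxb4, Hoxa3 and Nr2f2, all among the 11, passed the filter through their counts in 2i. The number called in this list is thus a description and no support for a direction. Cdx1 was at 0.200, 0.165 and 0.178 TPM in TKO-serum and at 40.3, 39.5 and 33.7 TPM in TKO-2i, the largest rise in the list (log2 fold change 7.85, SE 0.17, edgeR Benjamini-Hochberg adjusted p = 1.59e-08). These values rest on 9, 9 and 9 counts in serum and 2365, 1818 and 1843 in 2i. The filter of at least 10 counts in every sample left Cdx1 untested. Cdx1 is also a known target of Wnt signalling. Meis2, a partner of Hox proteins, rose from 1.11, 1.50 and 1.23 TPM to 7.48, 8.58 and 6.81 TPM (log2 fold change 2.69, SE 0.10, edgeR Benjamini-Hochberg adjusted p = 2.04e-07). Egr1, which is also an immediate-early gene of ERK signalling, fell from 48.7 ± 2.79 (SD, n = 3) TPM to 8.08 ± 1.54 (SD, n = 3) TPM (log2 fold change -2.48, SE 0.13, edgeR Benjamini-Hochberg adjusted p = 1.05e-06). Cdx1 and Meis2 thus moved opposite to Cyp26a1 and Stra6, and Egr1 moved with them.

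Markers of cell types were counted in the same way, where 62.5% of all genes tested were called. All 10 mESC markers were expressed in every library, with summed TPM of 6571, 6259 and 6355 in TKO-serum and 5645, 5193 and 5125 in TKO-2i, Dppa5a as the most abundant, 2 called higher and 5 lower. Of 12 primitive and visceral endoderm markers 11 were tested, 9 fell and none rose, and their summed TPM was 43.8, 47.7 and 48.5 in serum and 8.07, 9.52 and 8.20 in 2i. Col4a1 was the most abundant, at 23.5, 24.3 and 22.4 TPM in serum and 2.70, 3.19 and 2.51 TPM in 2i, and Dab2 (-4.35) and Cubn (-6.93) fell on the log2 scale, while none of the 12 was at 0 in all libraries. Stra6, Cyp26a1 and Lrp2 fell in the same libraries, and the part of such cells in these falls was not tested.

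Of 8 neuroectoderm markers 4 were tested, 3 fell and 1 rose, with summed TPM of 23.3, 25.5 and 23.9 in serum and 13.7, 16.9 and 12.8 in 2i. Pax6 was the most abundant in serum and Nes, the marker that rose (0.54 on the log2 scale), in 2i. Of 8 mesoderm and primitive streak markers 7 were tested, 3 rose and 2 fell, with sums of 5.85, 6.10 and 5.81 TPM in serum and 22.8, 23.6 and 27.3 TPM in 2i, Hand1 as the most abundant in serum and T in 2i. Of 8 trophoblast markers, 1 of which (Hand1) is also in the mesoderm list, all were tested, 3 rose and 4 fell, with sums of 44.3, 45.9 and 42.8 TPM in serum and 49.2, 48.5 and 45.1 TPM in 2i and Tfap2c, which mESCs also express, as the most abundant. Of 8 fibroblast markers 3 were tested and 2 fell, with sums of 5.86, 6.48 and 6.03 TPM in serum and 4.12, 4.81 and 4.55 TPM in 2i and Thy1 as the most abundant. Of all genes tested 31.9% rose and 30.6% fell. No marker of these lists was at 0 in all libraries, and the part of such cells in the retinoid values was not tested.

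The genes most like Cyp26a1 were sought among 15084 other tested protein-coding genes by the Euclidean distance in log2(TPM + 0.1) over the 6 libraries. The nearest was Plac1 at a distance of 0.268, with 0.978, 1.21 and 1.02 TPM in serum and 0.0368, 0.120 and 0.0380 TPM in 2i. Isl2 at 0.478 and Fat2 at 0.597 came next. All 3 were below 0.185 TPM in each library in 2i and above 0.797 TPM in each in serum.

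Promoter windows from RefSeq (GRCm38.p6, 250 bases before to 50 after a gene start) were matched for 7 of the 9 members, with 12 windows in all. The sequences are shown because Cyp26a1 and Rarb are both known targets of the RARs, and Cyp26a1 fell while Rarb was scarce in both groups. Each window was searched on both strands for direct repeats of a half-site with a spacer of 1, 2 or 5 bases, named DR1, DR2 and DR5. The half-sites searched were AGGTCA and AGTTCA. The forms GGGTCA and GGTTCA were also searched. A DR5 was found in the windows of Cyp26a1 and Rarb, and none of the 3 repeats in the other 10 windows. Over all 32851 windows of the same length, 0.0974% held a DR5, 0.222% a DR1 and 0.268% a DR2. The stretches printed here are 29 bases, 5′ to 3′ on the strand that carries the repeat, with the 17 bases of the DR5 in capitals.
Cyp26a1, chr19:37697770-37697798, minus strand: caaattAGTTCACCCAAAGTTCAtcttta
Rarb, chr14:16575507-16575535, minus strand: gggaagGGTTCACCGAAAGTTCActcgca
The Cyp26a1 repeat ends 16 bases before the RefSeq start, on the strand opposite to the gene and outside annotated exons. The Rarb repeat lies 37 bases before the RefSeq start on the strand of the gene, in the 5′ UTR of the GENCODE transcripts Rarb-201 and Rarb-207. The 2 genes with this repeat differed in level in TKO-serum, where Cyp26a1 was at 1.05, 1.23 and 0.932 TPM and Rarb at 0.0486, 0.156 and 0.135 TPM. A match of letters is a description and no measure of receptor binding.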

How the data were processed

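RNA-seq libraries of TKO mESCs in serum (n = 3) and in 2i (n = 3) were compared, with groups and replicate numbers taken from the sample labels. The authors deposited estimated counts and TPM for each transcript, with the length and effective length, in the columns of the quantifier salmon. Neither salmon nor its index is named in the sources used here. The submitters' processing notes name mm10, and the methods of the study describe Tophat, RPKM and DEseq. The deposited estimated counts were not normalised, and the deposited TPM was scaled by transcript length and library. Reads shared by transcripts are divided between them, and how many were shared was not measured here.

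Of 136288 transcripts 136100 were matched to GENCODE M21, and at most 0.0643% of the counts of a library were left out. Counts were summed per gene, rounded, filtered by filterByExpr, normalised by TMM and fitted with the quasi-likelihood test of edgeR 4.0.16 (R 4.3.3), with the condition as the only factor. Benjamini-Hochberg adjustment was made over 18177 genes, and genes with an adjusted p under 0.05 were called. Each SE was derived from the fold change and the F statistic, and CPM from TMM library sizes. Tables were made with Python 3.11.15, numpy 2.4.6, pandas 2.3.3 and scipy 1.17.1. Total counts were 38274042 to 51932739 per library, and 3 counts, taken as the floor, were 0.0578 to 0.0784 CPM. As PCR copies are not independent molecules, intervals and this floor describe counting error alone.

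The fit was tested on simulated counts of 18177 genes with library sizes and dispersions of the real data, of which 200 were changed. False calls in this test made up more than the nominal share, so calls with an adjusted p near 0.05 are less certain than it states. The alternatives were DESeq2 1.42.0, its size factors in edgeR, the omission of the low-count filter, a filter of 10 counts in each library, length-scaled TPM as counts, limma 3.58.1 on TPM with a pseudocount of 1 or 0.1 on the log2 scale, the replicate number as a block, protein-coding genes, and each library left out. Counts over protein-coding transcripts were added after seeing the data. The members and lists were chosen with earlier results of these data known. From each wider list up to 4 called genes with the largest absolute log2 fold change and a mean CPM of at least 1 were named, with every gene of the receptor list, and 2 genes that met this rule are not reported here. Other cell lines of the study were not used here.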

Additional observations from a re-analysis of the deposited data

How the results depend on the processing

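Across the alternatives the 8 members tested kept their direction except Cyp26b1, which was not called in any. Without TKO-2i replicate 1 it was at 0.0265 on the log2 scale and without TKO-2i replicate 3 at -0.61, and the cause was not tested. Rarb was tested under 6 alternatives and called in none, at -0.67 to 0.0839, the latter without TKO-2i replicate 3. With 1 library left out, 5 to 7 members, 10152 to 12568 genes and 41 to 49 genes of the wider lists were called, against 7, 11361 and 47. Cyp26a1 lay between -4.51 and -3.40 and Stra6 between -3.11 and -2.28 with 1 library left out. Limma on log2(TPM + 1) and log2(TPM + 0.1) gave smaller sizes, -0.94 and -2.77 for Cyp26a1, -0.57 and -1.94 for Stra6 and -0.42 and -1.96 for Rxrg. All 3 stayed called. The filter of at least 10 counts in every sample left 5 members tested, all called, because Cyp26a1, Stra6, Cyp26b1 and Rarb had fewer counts in some library. Both limma fits called 6. Over protein-coding transcripts, an alternative chosen after seeing the data, Dhrs3 rose by 1.59 and 7 members were called. Genes called with an absolute log2 fold change above 2 numbered 1671, and 2593 with no filter, 692 with at least 10 counts in every sample and 322 by limma on log2(TPM + 1), whose pseudocount shrinks low genes. Ppard, not called, was at -0.0207 with counts from length-scaled TPM, -0.11 by limma on log2(TPM + 1) and -0.11 on log2(TPM + 0.1), and the cause was not tested.

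With a replicate block 12539 genes, 7 members and 55 genes of the wider lists were called. Deviations of same-numbered libraries correlated at 0.242, 0.329 and 0.014, and the best partner of a library in the other group had the same number for 5 of 6 libraries, the exception being TKO-2i replicate 3, which correlated best with TKO-serum replicate 1. The labels give no pairing, so the numbers were not taken to pair the samples.

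Rarb and Cyp26b1 had 49 and 56 counts over the 6 libraries. Their intervals of 0.424 to 1.43 and 0.478 to 1.48, for counting error alone, include no difference. Cyp26a1 and Stra6 rest on 11 and 27 counts in 2i. Cells of 1 genotype were analysed, and RNA levels do not give enzyme activity or retinoid amounts.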

Other observations

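Rdh7, named after its values were seen, had 0, 2 and 0 counts in TKO-serum and 25, 24 and 27 counts in TKO-2i, and its related neighbours Rdh1, Rdh9 and Rdh16 on chromosome 10 overlapped between the groups. Reads shared among these genes were not measured. Hoxb4 and Hoxa3, also named after their values were seen, rose from 0.0761, 0.0239 and 0.0404 TPM to 0.529, 0.774 and 0.560 TPM and from 0.0659, 0.0960 and 0.0582 TPM to 0.522, 0.459 and 0.567 TPM. The serum values rest on 5, 2 and 3 counts for Hoxb4 and 4, 7 and 4 for Hoxa3. TKO-serum replicate 2 was thus under the floor of 3 counts for Hoxb4. Rdh7, Hoxb4 and Hoxa3 passed the filter through their counts in 2i. Hoxb1, Hoxa2, Hoxb2 and Hoxb5 had 19, 24, 27 and 5 counts over the 6 libraries and were not tested. Stra8, a germ cell gene induced by retinoic acid, was at 7.63, 6.30 and 7.23 TPM in TKO-serum and at 5.49, 4.95 and 2.42 TPM in TKO-2i and did not pass the edgeR test (log2 fold change -0.62, SE 0.24, edgeR Benjamini-Hochberg adjusted p = 0.0506). Stra8 and Hoxa3 lie on chromosome 6 and Hoxb4 on chromosome 11, where the medians of tested genes were 0.41 and 0.26 on the log2 scale. The part of these shifts in their values was not tested. Rec8, a meiotic cohesin gene, rose from 12.0, 12.3 and 13.4 TPM to 18.5, 18.2 and 17.6 TPM (log2 fold change 0.66, SE 0.0919, edgeR Benjamini-Hochberg adjusted p = 2.87e-04).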
